A study of Mus musculus with 16 samples.

Results

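The genes of oxidative phosphorylation described here are nuclear-encoded subunits of the respiratory chain and of ATP synthase. They were chosen by symbol, as every gene of the array table whose symbol starts with NDUFA, NDUFB, NDUFC, NDUFS, NDUFV, SDHA to SDHD, UQCR, COX4 to COX8 or ATP5. No measured value is part of that rule, though it was set with earlier results of these data known. The rule took 77 of 18132 genes. Of these, 66 encode subunits of the complexes expected in most tissues: 33 of complex I, 3 of complex II, 6 of complex III, 10 of complex IV and 14 of complex V. Another 7 are isoforms of complex IV with a restricted tissue pattern (Cox4i2, Cox6a2, Cox6b2, Cox7a1, Cox7b2, Cox8b and Cox8c). The remaining 4 were not counted as subunits. They are Ndufaf1, an assembly factor, and Atp5s, Atp5sl and Cox4nb, which the rule took by the start of their symbols. Subunits encoded by the mitochondrial genome are outside the rule, and Sdha and Cox8a were not analysed here. Cyc1, cytochrome c1 of complex III, is also outside it by its symbol and is counted below with the electron carriers.

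RNA of mouse kidney was measured on Illumina BeadChips, in which probes on beads bind labelled copies of the transcripts and are read out by their intensity. Unilateral ureteral obstruction (UUO) closes a ureter with a clip and injures the kidney behind it. The 12 obstructed kidneys were harvested 24 h after ligation, 7 from wild type (WT) mice, C57/BL6 in the labels, and 5 from mice with a deletion of Il33 (labelled IL-33 KO, here IL-33-deficient), which per the methods had been backcrossed to C57BL/6J BomTac mice. The 4 control kidneys, 2 of each genotype, are labelled only as controls, and whether those mice were operated is not given in the sources used here. Per the methods the mice were young adults unless stated otherwise, and the labels give no age. The deletion is in all cell types of the mouse, so no single cell type can be singled out by it. The labels place 3 WT and 2 IL-33-deficient obstructed kidneys in a set 1 and 4 WT and 3 IL-33-deficient ones in a set 2, and give no set for the controls. Each array goes by its number in the label. Since the labels call the arrays separate samples and say no more, the p-values measure the spread between these 16 arrays.

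Electrons from NADH enter the chain at complex I and those from succinate at complex II. They pass over coenzyme Q to complex III and over cytochrome c to complex IV, where oxygen is reduced, and the proton gradient built on the way drives complex V, the ATP synthase. Reabsorbing tubule cells, above all those of the proximal tubule and the thick ascending limb, are among the cells richest in mitochondria, and much of the oxygen the kidney consumes pays for the transport of sodium.

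Promoters of 7 of these genes are shown, all of them genes whose changes are described below. They are not a sample of the members, and the shares of all members' promoters with each motif are given further below. Each runs from 250 bases before to 50 bases after the start that RefSeq gives for mouse build GRCm38.p6, on the strand of the gene. Capitals mark matches, on either strand, to short motifs of factors known to act on such genes: GCGCATGC for NRF1, CCGGAAG for GABP, AAGGTCA for the estrogen-related receptors (ERR), AAGATGG for YY1 and ACGTG for the hypoxia response element. The NRF1 letters and their reverse complement overlap in GCGCATGCGC, which then counts on both strands. Uqcrc1, Uqcr (RefSeq Uqcr11), Sdhb and Cox6a1 were among the larger falls of their complexes, Ndufs7 among those of complex I, Cox7a1 was the steepest of all, and Atp5g2 moved the opposite way.
Uqcrc1, chr9:108936398-108936697 (+ strand): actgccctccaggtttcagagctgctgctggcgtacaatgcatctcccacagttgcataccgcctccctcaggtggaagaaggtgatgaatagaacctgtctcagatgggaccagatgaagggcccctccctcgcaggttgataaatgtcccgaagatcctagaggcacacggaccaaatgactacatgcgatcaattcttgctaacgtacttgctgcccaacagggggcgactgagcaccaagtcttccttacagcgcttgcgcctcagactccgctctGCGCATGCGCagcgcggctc
Uqcr, chr10:80406772-80407071 (- strand): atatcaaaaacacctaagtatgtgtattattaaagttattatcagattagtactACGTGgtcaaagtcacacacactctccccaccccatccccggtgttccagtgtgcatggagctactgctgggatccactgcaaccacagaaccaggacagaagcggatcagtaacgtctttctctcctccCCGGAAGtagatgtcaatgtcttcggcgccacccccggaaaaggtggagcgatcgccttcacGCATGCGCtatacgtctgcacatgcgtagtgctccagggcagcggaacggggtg
Sdhb, chr4:140961021-140961320 (+ strand): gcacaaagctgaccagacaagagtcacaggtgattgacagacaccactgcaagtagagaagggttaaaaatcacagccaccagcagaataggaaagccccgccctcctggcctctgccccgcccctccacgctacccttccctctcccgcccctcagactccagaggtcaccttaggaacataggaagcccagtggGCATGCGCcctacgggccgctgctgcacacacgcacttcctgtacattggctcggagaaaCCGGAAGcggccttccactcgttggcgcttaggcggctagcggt
Cox6a1, chr5:115348909-115349208 (- strand): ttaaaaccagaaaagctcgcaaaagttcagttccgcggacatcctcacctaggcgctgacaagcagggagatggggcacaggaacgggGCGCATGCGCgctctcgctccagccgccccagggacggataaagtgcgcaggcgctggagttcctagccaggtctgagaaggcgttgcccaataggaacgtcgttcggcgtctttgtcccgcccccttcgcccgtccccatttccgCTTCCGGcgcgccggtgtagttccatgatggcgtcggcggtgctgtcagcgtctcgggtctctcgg
Ndufs7, chr10:80249199-80249498 (+ strand): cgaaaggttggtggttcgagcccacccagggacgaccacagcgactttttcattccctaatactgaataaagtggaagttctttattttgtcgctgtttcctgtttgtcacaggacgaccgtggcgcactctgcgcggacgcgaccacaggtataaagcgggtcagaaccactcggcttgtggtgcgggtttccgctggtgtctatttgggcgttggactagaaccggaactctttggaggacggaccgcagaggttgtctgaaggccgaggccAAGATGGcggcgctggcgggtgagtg
Cox7a1, chr7:30183921-30184220 (+ strand): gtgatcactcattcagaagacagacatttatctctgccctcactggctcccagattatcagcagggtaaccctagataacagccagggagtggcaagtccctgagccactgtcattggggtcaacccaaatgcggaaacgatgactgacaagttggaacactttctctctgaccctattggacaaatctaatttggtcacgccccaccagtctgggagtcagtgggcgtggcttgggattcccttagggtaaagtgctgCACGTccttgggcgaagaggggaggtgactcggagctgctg
Atp5g2, chr15:102670998-102671297 (- strand): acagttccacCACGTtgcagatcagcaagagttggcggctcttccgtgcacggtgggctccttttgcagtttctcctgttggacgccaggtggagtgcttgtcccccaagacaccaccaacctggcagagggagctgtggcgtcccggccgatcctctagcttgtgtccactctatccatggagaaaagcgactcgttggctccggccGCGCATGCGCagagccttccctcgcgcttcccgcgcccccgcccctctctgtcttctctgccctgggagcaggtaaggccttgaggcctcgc

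The labels were checked first. Il33 read 7.62 and 8.02 on the log2 scale in WT controls and between 8.39 and 9.57 in the 7 WT kidneys after UUO, while all 7 IL-33-deficient kidneys lay between 6.80 and 7.02, the level of unexpressed genes. Havcr1, a marker of injured proximal tubule, was between 7.07 and 7.37 in the 4 controls and between 10.42 and 13.95 in the 12 obstructed kidneys. WT array 3820 held the lowest value among them, and WT array 3818, at 12.84, the next. All log2 values are of normalized intensity, and a value of one gene cannot be set against that of another, because probes differ in brightness. The 8 dimmest members (Ndufs1, Uqcrfs1, Uqcrq, Atp5k, Cox4i2, Cox7b2, Cox8b and Cox8c) had means at or under 6.95, where the background of the array holds values together, and none of the 8 passed an adjusted or an unadjusted p of 0.05 in limma in either genotype.

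Respiratory chain transcripts were lower 24 h after UUO in both genotypes, by small amounts that many members shared. In WT kidneys 25 of the 77 genes fell and 0 rose at an adjusted p under 0.05 (limma, Benjamini-Hochberg over all genes; 32 and 0 at an unadjusted p under 0.05), against 8.22% of all genes that fell and 6.97% that rose. In IL-33-deficient kidneys 36 fell and 3 rose, against 11.2% and 10.6% of all genes. The members are bright, and among the 9066 genes brighter than the median gene 15.3% fell in WT and 20.8% in IL-33-deficient kidneys, beside 25 and 36 of the 69 members among them. The median log2 fold change of the 77 genes was -0.19 in WT (-12.4%) and -0.24 in IL-33-deficient kidneys (-15.6%), where the median over all genes was 0.00 in both. The signs pointed down for 66 and 64 of the 77 genes. All 25 genes that fell in WT also fell in IL-33-deficient kidneys, which is 100% of the WT list and 69.4% of the other. In bulk RNA, fewer cells of a type and less RNA per cell cannot be told apart. Without WT control 3811 the WT count was 14 and without 3812 it was 10, and the 39 calls in the other genotype were 25 without IL-33-deficient control 3813. A group of controls then holds 1 array, which is assumed to vary like the other groups, here and wherever a control is left out below. The medians moved less, lying between -0.22 and -0.13 in WT and between -0.28 and -0.20 in IL-33-deficient kidneys over all arrays left out in turn. Subtracting the background ended the calls of Ndufv1 in both genotypes (-0.27 and -0.28). It also ended those of Ndufb8, Sdhc, Cox6a1 and Atp5j2 in WT (-0.32, -0.39, -0.38 and -0.30) and of Cox4i1, Cox5a and Atp5g2 in IL-33-deficient kidneys (-0.28, -0.26 and 0.25). With WT arrays fitted alone Ndufs3, Ndufb8 and Cox6a1 were not called, at -0.45, -0.32 and -0.38. The WT count also differed between the sets, with 36 called for the WT kidneys of set 2 against the controls and 1 for those of set 1.

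**Figure D1:**
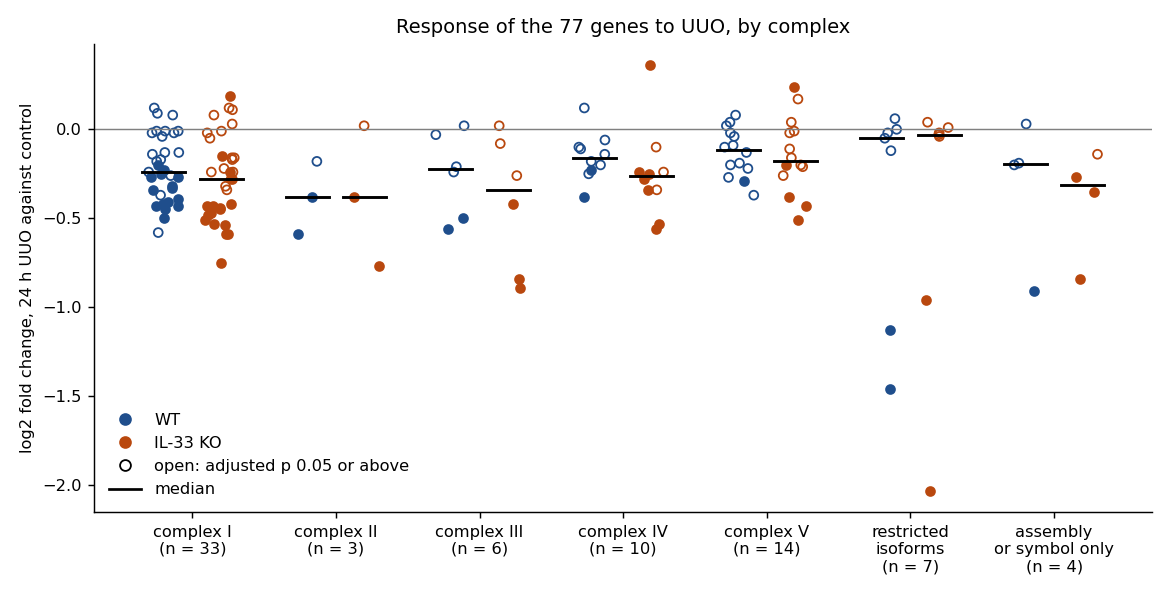
Log2 fold change, 24 h UUO against control, of each of the 77 genes (points) by complex in WT and IL-33-deficient (KO) kidneys; filled points passed an adjusted p of 0.05 in limma and bars are medians. Most points lie under 0 in every complex, the medians of the 5 complexes run from -0.12 (complex V, WT) to -0.38 (complex II, both genotypes), and the steepest points, down to -2.03, are restricted isoforms of complex IV.

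Complex I, the entry point of electrons from NADH, has the most subunits here and had the most that fell. Of its 33 subunits 15 fell in WT and 16 in IL-33-deficient kidneys, with 1 rising there, and the medians were -0.24 and -0.28. Among the brighter genes 15.3% fell in WT and 20.8% in IL-33-deficient kidneys, and 10.6% of all genes rose in the latter. By share of its subunits complex I was not the first. In complex II 2 of 3 fell in each genotype. In IL-33-deficient kidneys 3 of 6 fell in complex III and 6 of 10 in complex IV. The 7 catalytic core subunits had medians of -0.41 and -0.45, with 5 called in each genotype, and the 26 accessory subunits -0.19 and -0.24, with 10 and 11 called. Whether core and accessory subunits differ was not tested.

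Ndufs8, an iron-sulfur subunit of the arm that passes electrons to coenzyme Q, read 12.21 and 12.36 in WT controls and 12.40 and 12.42 in IL-33-deficient controls. After UUO it lay between 11.65 and 11.91 in WT, with a median of 11.76, and read 11.81, 11.78, 11.86, 11.86 and 11.77 in IL-33-deficient kidneys. No obstructed kidney reached any control. The log2 fold change was -0.50 ± 0.07 (SE; limma adjusted p = 0.000271) in WT and -0.59 ± 0.07 (adjusted p = 4.1e-05) in IL-33-deficient kidneys. Ndufs7, its neighbour in the same arm, read 12.18 and 12.41 in WT controls and 12.35 and 12.27 in the others. It went to between 11.74 and 12.08 in WT, with a median of 11.81, and to 11.63, 11.53, 11.85, 11.84 and 11.71 in IL-33-deficient kidneys. These groups did not overlap within either genotype either. Its fold changes were -0.43 ± 0.10 (limma adjusted p = 0.00838) and -0.59 ± 0.10 (adjusted p = 0.000684), the former passing no longer without WT control 3812, at -0.31.

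Ndufs3, a core subunit at the base of that arm, read 11.74 on both WT control arrays and 11.63 and 11.71 in IL-33-deficient controls. Its WT values after UUO ran from 11.09 to 11.73 with a median of 11.22, and those of IL-33-deficient kidneys were 11.01, 11.17, 11.32, 11.31 and 11.31. The WT kidney nearest to its controls was array 3820. The log2 fold change was -0.45 ± 0.13 in each genotype (limma adjusted p = 0.0238 in WT and 0.0212 in IL-33-deficient kidneys), and the WT call was lost without either of the 2 WT controls, at an unchanged -0.45. Ndufv1, the subunit that takes electrons from NADH, changed by -0.27 ± 0.07 (limma adjusted p = 0.0177) and -0.28 ± 0.07 (adjusted p = 0.0122). Its call was lost without either WT control, at -0.26 without 3811 and -0.28 without 3812, and without IL-33-deficient control 3814, at -0.20. Ndufs1, the largest iron-sulfur subunit, was at the background level.

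Among accessory subunits, Ndufb8 of the membrane arm was 13.49 and 13.56 in WT controls and between 13.02 and 13.48 in WT kidneys after UUO, with a median of 13.18. In IL-33-deficient kidneys it read 13.54 and 13.58 in controls and 13.09, 13.14, 13.18, 13.20 and 13.10 after UUO. The groups stood apart in both genotypes. Its fold changes were -0.32 ± 0.09 (limma adjusted p = 0.0220) and -0.42 ± 0.09 (adjusted p = 0.00344), and the WT call was lost without WT control 3811, at -0.36, or 3812, at -0.28. Ndufb10, also of the membrane arm, had the largest change of the complex in IL-33-deficient kidneys, -0.75 ± 0.21 (limma adjusted p = 0.0190), and gave -0.58 ± 0.20 (adjusted p = 0.0720) in WT. It was not called without either IL-33-deficient control, at -0.61 without 3813 and -0.89 without 3814. The acyl carrier protein Ndufab1, which also serves fatty acid and iron-sulfur synthesis, did not pass in either genotype, at -0.13 and -0.16. Ndufb6, a small membrane-arm subunit, was the 1 member of complex I that rose, by 0.19 ± 0.06 in IL-33-deficient kidneys (limma adjusted p = 0.0330), while in WT it was 0.12 ± 0.06 (adjusted p = 0.204). That rise was lost without IL-33-deficient control 3813, at 0.10, and without obstructed arrays 3822, 3897 or 3899, at 0.17, 0.16 and 0.19. It was also lost without the further quantile normalization, at 0.18, and at 0.19 with background subtraction, a variance trend or that genotype fitted alone.

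**Figure D2:**
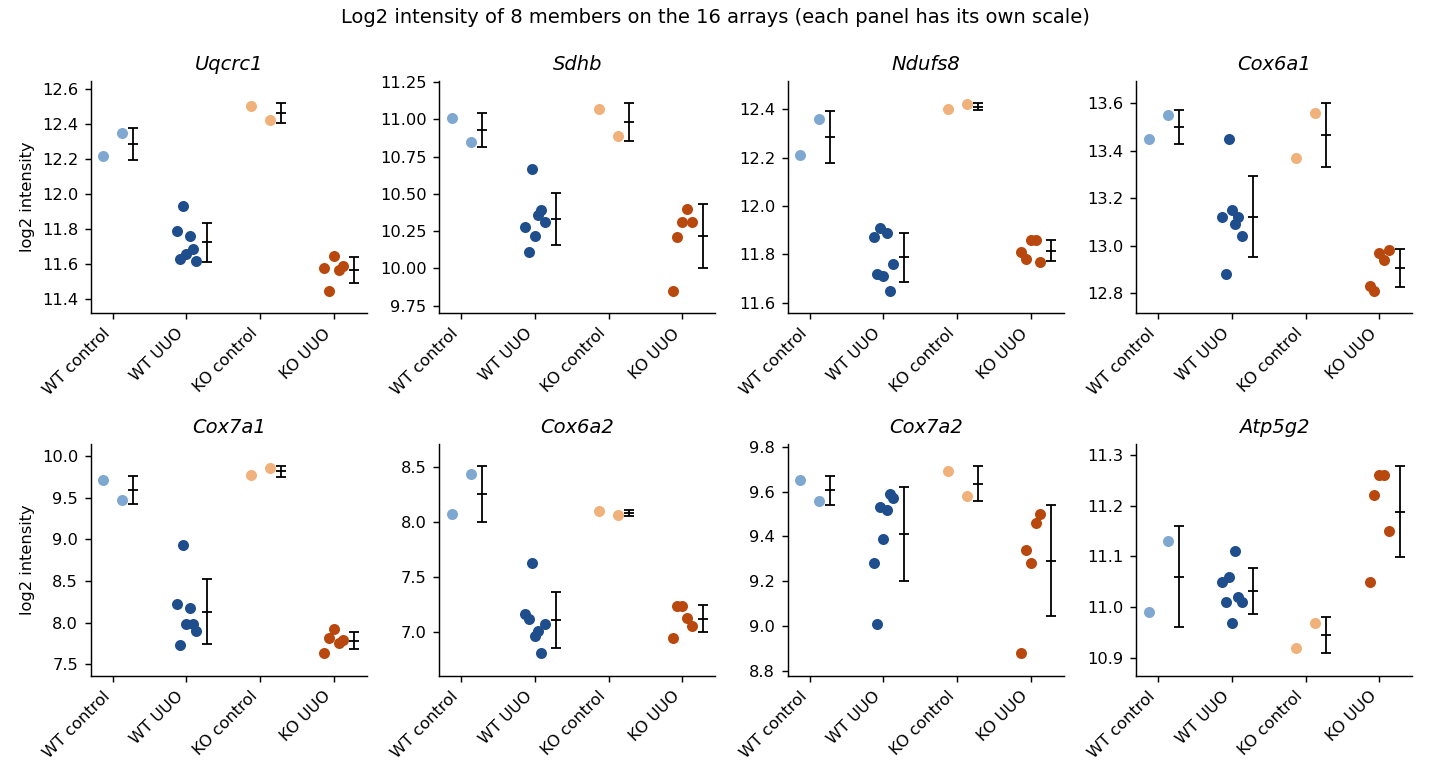
Log2 intensity of 8 members on every array (points) in the 4 groups, with the mean and SD of each group; each panel has its own scale and levels cannot be compared between panels. Uqcrc1, Sdhb, Ndufs8 and Cox7a1 have no overlap of control and obstructed kidneys within a genotype, Cox7a2 has a single low array in each obstructed group, and Atp5g2 is higher after UUO in IL-33-deficient kidneys.

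Complex II, succinate dehydrogenase, also works in the citric acid cycle and was measured by 3 of its 4 subunits. Sdhb, its iron-sulfur subunit, read 11.01 and 10.85 in WT controls and 11.07 and 10.89 in IL-33-deficient controls. After UUO it lay between 10.11 and 10.67 in WT, with a median of 10.31, and read 9.85, 10.21, 10.31, 10.40 and 10.31 in IL-33-deficient kidneys. All obstructed kidneys were below all controls, with array 3821 the lowest. The changes were -0.59 ± 0.13 (limma adjusted p = 0.00808) and -0.77 ± 0.14 (adjusted p = 0.00105). Sdhc, a membrane anchor, changed by -0.38 ± 0.09 (limma adjusted p = 0.0146) and -0.38 ± 0.10 (adjusted p = 0.0105). The other anchor, Sdhd, was -0.18 ± 0.23 and 0.02 ± 0.24 with overlapping groups and changed sign with single arrays. The WT calls of Sdhb and Sdhc were lost without either WT control, at -0.52 and -0.39 without 3811 and at -0.67 and -0.36 without 3812, and that of Sdhc in IL-33-deficient kidneys without control 3814, at -0.27.

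Complex III passes electrons from coenzyme Q to cytochrome c, and held the largest change of a constitutive subunit in IL-33-deficient kidneys. Uqcrc1, one of its large core proteins on the matrix side, read 12.22 and 12.35 in WT controls and 12.50 and 12.42 in IL-33-deficient controls. After UUO it lay between 11.62 and 11.93 in WT, with a median of 11.69, and read 11.58, 11.45, 11.65, 11.57 and 11.59 in IL-33-deficient kidneys. Every obstructed kidney was well below every control. It fell by 32.0% in WT (log2 fold change -0.56 ± 0.07, limma adjusted p = 0.000271) and fell by 46.1% in IL-33-deficient kidneys (-0.89 ± 0.08, adjusted p = 5.28e-06).

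Uqcr, a small subunit at the edge of complex III, read 13.18 and 13.20 in WT controls and between 12.45 and 12.97 in WT kidneys after UUO, with a median of 12.69. In IL-33-deficient kidneys it read 13.41 and 13.34 in controls and 12.40, 12.50, 12.60, 12.59 and 12.60 after UUO. Control and obstructed kidneys were again apart in both genotypes. The fold changes were -0.50 ± 0.09 (limma adjusted p = 0.00205) and -0.84 ± 0.10 (adjusted p = 3.83e-05). Uqcrc2, the partner core protein, changed by -0.42 ± 0.08 in IL-33-deficient kidneys (limma adjusted p = 0.00184) and missed the threshold in WT, at -0.24 ± 0.08 (adjusted p = 0.0551), where it passed without array 3818, at -0.26, or 3820, at -0.27. The Rieske iron-sulfur protein Uqcrfs1 was too dim to judge, at -0.03 and -0.08. With the dim members left out, the median of complex III went from -0.23 to -0.37 in WT and from -0.34 to -0.63 in IL-33-deficient kidneys.

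Complex IV, cytochrome c oxidase, is built around a mitochondrially encoded core by the nuclear subunits measured here. Of its 10 subunits 2 fell in WT and 6 fell and 1 rose in IL-33-deficient kidneys, with medians of -0.16 and -0.27. Among the brighter genes 15.3% fell in WT and 20.8% in IL-33-deficient kidneys, and 10.6% of all genes rose in the latter. The 2 falls in WT and the 1 rise are near those shares. Cox6a1, the form of subunit VIa used outside muscle, read 13.45 and 13.55 in WT controls and 13.37 and 13.56 in IL-33-deficient controls. After UUO it lay between 12.88 and 13.45 in WT, with a median of 13.12, and read 12.83, 12.81, 12.97, 12.94 and 12.98 in IL-33-deficient kidneys. WT array 3820 stood at the level of the lower WT control, and in IL-33-deficient kidneys the groups were apart. It changed by -0.38 ± 0.10 (limma adjusted p = 0.0209) and -0.56 ± 0.11 (adjusted p = 0.00139), the WT call being lost without WT control 3811, at -0.43, or 3812, at -0.32. The other subunit called in WT was Cox6b1, which faces the cytochrome c side, at -0.23 ± 0.05 (limma adjusted p = 0.00962) and -0.34 ± 0.06 (adjusted p = 0.000600); it was named after its values were seen.

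Cox4i1, the main form of a subunit that carries regulatory nucleotide binding, was -0.06 ± 0.06 in WT (limma adjusted p = 0.635) and -0.28 ± 0.07 in IL-33-deficient kidneys (adjusted p = 0.00653). Cox5a and Cox5b, both on the matrix side, gave -0.11 and -0.14 in WT, short of the threshold, and -0.25 ± 0.07 (limma adjusted p = 0.0135) and -0.24 ± 0.08 (adjusted p = 0.0396) in IL-33-deficient kidneys. Without control 3814 the calls of Cox4i1, Cox5a and Cox5b were lost, at -0.24, -0.27 and -0.23, and those of Cox5a and Cox5b also without 3813, at -0.24 and -0.25. That of Cox5b was lost as well without obstructed arrays 3821, at -0.19, or 3899, at -0.23. It was lost too without the further quantile normalization, at -0.22, with median centring, at -0.21, and at -0.24 with background subtraction, a variance trend or that genotype fitted alone. Ndufa4, named for complex I and now placed in complex IV, was -0.10 in both genotypes and did not pass. Cox7a2, the form of subunit VIIa outside muscle, read 9.28, 9.01, 9.53, 9.39, 9.52, 9.59 and 9.57 in the WT kidneys after UUO and 8.88, 9.34, 9.28, 9.46 and 9.50 in the IL-33-deficient ones. WT array 3819 and IL-33-deficient array 3821 were low on their own, and the changes, -0.20 ± 0.15 and -0.34 ± 0.16, did not pass. Cox7a2l, named for its likeness to Cox7a2, was the 1 subunit of the group that rose, by 0.36 ± 0.09 in IL-33-deficient kidneys (limma adjusted p = 0.0120), and was 0.12 ± 0.09 in WT (adjusted p = 0.196). Its rise was lost without IL-33-deficient control 3813, which at 10.23 lay below control 3814 at 10.55, and was then 0.20.

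The steepest falls of all 77 genes belonged to isoforms of complex IV best known from heart and skeletal muscle. Cox7a1 read 9.71 and 9.47 in WT controls and 9.77 and 9.86 in IL-33-deficient controls. Obstructed WT kidneys lay between 7.73 and 8.93, with a median of 7.98, and the gene read 7.63, 7.82, 7.92, 7.76 and 7.79 in IL-33-deficient kidneys. The lowest control was above the highest obstructed kidney, WT array 3820. The gene fell by 63.7% in WT (log2 fold change -1.46 ± 0.21, limma adjusted p = 0.000482) and fell by 75.5% in IL-33-deficient kidneys (-2.03 ± 0.22, adjusted p = 2.38e-05). Cox6a2 read 8.07 and 8.43 in WT controls, 8.10 and 8.06 in IL-33-deficient controls, 6.81 to 7.63 in WT after UUO with a median of 7.08, and 6.95, 7.24, 7.24, 7.13 and 7.06 in IL-33-deficient kidneys after UUO. Control and obstructed kidneys did not overlap, and the obstructed ones were close to the level of unexpressed genes, so that its fold change is compressed. It was -1.13 ± 0.15 (limma adjusted p = 0.000333) and -0.96 ± 0.16 (adjusted p = 0.000546). The 9 markers of striated muscle measured beside them (such as Ckm, Acta1 and Mb) were between 6.67 and 7.20 on all 16 arrays and the 5 of brown fat, such as Ucp1, between 6.64 and 7.14, at or near background in every group, though Prdm16 of the latter list passed at -0.14 in IL-33-deficient kidneys (limma adjusted p = 0.0485). The isoforms Cox4i2 and Cox8b were dim as well, with changes between -0.04 and 0.06.

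Complex V is the ATP synthase, which the proton gradient turns. Of its 14 subunits 1 fell in WT, and 4 fell and 1 rose in IL-33-deficient kidneys, with medians of -0.12 and -0.18. The 1 fall in WT and the 1 rise are no larger shares of the 14 than the 8.22% of all genes that fell in WT and the 10.6% that rose in IL-33-deficient kidneys. Among the brighter genes 15.3% fell in WT and 20.8% in IL-33-deficient kidneys, and the 4 falls of 14 are not far from the latter share. The catalytic β subunit Atp5b read 14.32 on both WT controls and between 14.11 and 14.35 in WT kidneys after UUO. It read 14.24 and 14.28 in IL-33-deficient controls and 14.30, 14.26, 14.35, 14.13 and 14.22 after UUO. The groups overlapped, and the changes were -0.09 ± 0.06 and -0.01 ± 0.06. The α subunit Atp5a1, which alternates with it in the catalytic ring, was -0.22 ± 0.27 and -0.20 ± 0.28, with a wide spread and low values in WT arrays 3818, 3819 and 3820 (9.90, 9.51 and 9.71) and array 3821 (9.36). None of these passed the test.

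Of the 3 subunits of the rotating stalk inside the catalytic head, γ and δ fell in IL-33-deficient kidneys, while ε (Atp5e, named after its values were seen) was -0.21 ± 0.19 there and -0.37 ± 0.18 in WT and did not pass in either. The γ subunit Atp5c1 read 13.23 and 13.16 in controls of that genotype and 12.65, 12.45, 12.71, 12.85 and 12.75 after UUO, and the δ subunit Atp5d 12.03 and 12.23 in controls and 11.38, 11.63, 11.94, 11.73 and 11.81 after UUO. Neither gene had an obstructed kidney at the level of a control there. The changes were -0.51 ± 0.13 (limma adjusted p = 0.0107) for Atp5c1 and -0.43 ± 0.11 (adjusted p = 0.0125) for Atp5d, and in WT -0.19 ± 0.13 (adjusted p = 0.403) and -0.27 ± 0.11 (adjusted p = 0.117). Atp5c1 lost its call without either IL-33-deficient control, at -0.48 without 3813 and -0.55 without 3814, and Atp5d without 3814, at -0.33. Atp5j2, a small subunit of the membrane part, was the 1 member of complex V that fell in WT, by 0.29 ± 0.07 on the log2 scale (limma adjusted p = 0.0114), and it fell by 0.38 ± 0.07 in IL-33-deficient kidneys (adjusted p = 0.00160). Without WT control 3812 the former was -0.23 and did not pass. Atp5o, which links the head to the outer stalk, was 0.08 ± 0.08 and 0.17 ± 0.08 and did not pass.

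The proton-carrying ring of complex V is made of identical c subunits encoded by several genes. Atp5g2, one of them, read 10.99 and 11.13 in WT controls and between 10.97 and 11.11 in WT kidneys after UUO, with a median of 11.02. In IL-33-deficient kidneys it read 10.92 and 10.97 in controls and 11.05, 11.22, 11.26, 11.26 and 11.15 after UUO. The groups overlapped in WT and were apart in IL-33-deficient kidneys, where Atp5g2 rose by 0.24 ± 0.06 (limma adjusted p = 0.00592), against -0.02 ± 0.05 in WT. The rise was not called without IL-33-deficient control 3813, at 0.22. Atp5g3, which encodes the same mature protein, was -0.10 ± 0.07 and -0.16 ± 0.07 and did not pass in either genotype, though without array 3898 the latter was -0.20 and passed.

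**Figure D3:**
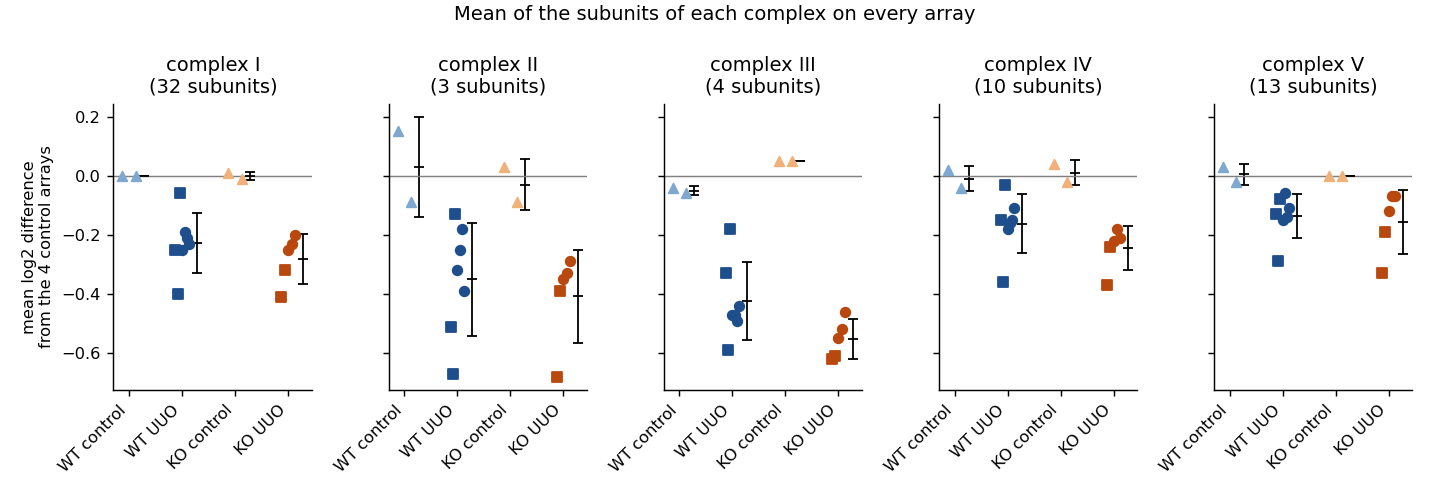
Mean log2 difference from the 4 control arrays of the subunits of each complex brighter than the median gene, 1 point per array; triangles are controls, squares obstructed kidneys of set 1, circles those of set 2, and bars the mean and SD of each group. Complex III has the lowest group means, -0.42 in WT and -0.55 in IL-33-deficient kidneys, complex V the highest, -0.14 and -0.16, and among WT kidneys the squares scatter more widely than the circles.

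The mean over the subunits of each array shows how the change was spread over kidneys. Over the 62 subunits brighter than the median gene the 4 controls lay between -0.02 and 0.02 of their own mean. WT kidneys after UUO averaged -0.22 ± 0.10 (SD, n = 7) and IL-33-deficient ones -0.27 ± 0.09 (SD, n = 5). WT array 3820 was the least changed, at -0.07, and WT array 3819, at -0.40, and IL-33-deficient array 3821, at -0.42, the most, all 3 of set 1. In set 2 the means were -0.21 ± 0.02 (SD, n = 4) and -0.22 ± 0.02 (SD, n = 3), and in set 1 -0.23 ± 0.17 (SD, n = 3) and -0.36 ± 0.08 (SD, n = 2). By complex the WT means were -0.23 for complex I, -0.35 for II, -0.42 for III, -0.16 for IV and -0.14 for V. Those of IL-33-deficient kidneys were -0.28, -0.41, -0.55, -0.24 and -0.16. These means describe the arrays and carry no test.

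Tubule markers changed as well, and followed the subunits on some arrays more than on others. Of 9 measured markers of the proximal tubule, the cells that reabsorb most of the filtrate, 2 fell in WT (Miox and Hnf4a) and 7 in IL-33-deficient kidneys. For this and the next lists, 8.22% of all genes fell and 6.97% rose in WT. In IL-33-deficient kidneys 11.2% fell and 10.6% rose. The mean level of the proximal tubule markers was between 11.57 and 11.69 in the 4 controls, 10.47 to 11.62 in WT and 10.11 to 10.70 in IL-33-deficient kidneys after UUO, and the lowest single marker on a control array read 7.19. Against controls that was -0.69 ± 0.37 (SD, n = 7) and -1.24 ± 0.23 (SD, n = 5). WT array 3820, with the least change in the subunits, was also least changed here, at -0.02, and arrays 3819 and 3821, with the most, gave -1.17 and -1.54. Elsewhere markers and subunits ran less in step. WT array 3818 gave -0.48 and IL-33-deficient array 3898 gave -1.21, with subunit means of -0.23 and -0.21. Of 6 thick ascending limb markers 4 fell in each genotype, with array means of -1.59 ± 0.62 (SD, n = 7) and -1.80 ± 0.05 (SD, n = 5). Of 5 injury markers 4 rose in WT and 5 in IL-33-deficient kidneys, with array means of 3.18 ± 0.62 (SD, n = 7) and 3.54 ± 0.17 (SD, n = 5), and of 8 leukocyte markers 2 rose in WT and 4 in IL-33-deficient kidneys, while 1, Csf1r, fell in both. Over the 12 obstructed arrays the correlation with the subunit mean (Pearson r) was 0.80 for proximal tubule and 0.51 for thick ascending limb markers. It was -0.70 for injury and -0.42 for leukocyte markers. These values describe the arrays and carry no test. The part of cell composition in the fall of the subunits was not tested.

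**Figure D4:**
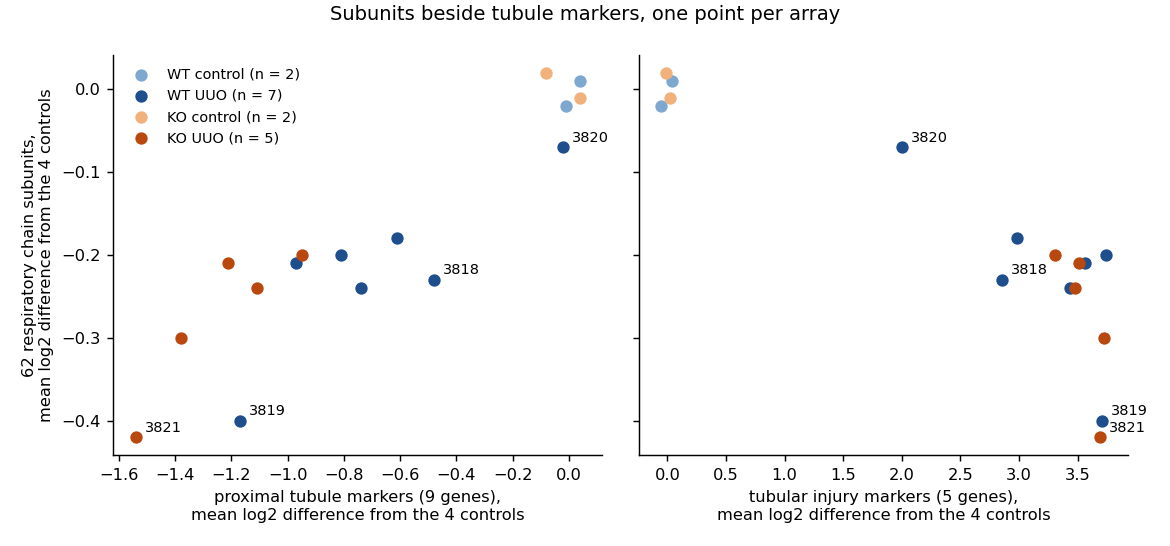
Mean log2 difference from the 4 controls of the 62 brighter subunits (vertical axis) against that of 9 proximal tubule markers (left) and of 5 tubular injury markers (right), 1 point per array, coloured by group. Array 3820 lies nearest the controls in the left panel, at -0.02 and -0.07, and arrays 3819 and 3821 lie lowest on the vertical axis, at -0.40 and -0.42.

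Between the genotypes after UUO the differences were small. None of the 77 genes passed an adjusted p of 0.05 in limma over the 12 obstructed kidneys, where 0.00552% of all genes did (1 gene, Il33). None met the threshold given by the study (p under 0.05 before and 0.25 after adjustment, with a fold change of more than 1.3), where 0.011% did. The study applied it to probes and to fewer WT kidneys, and lists many more that pass, so 0.011% is not its yield. At an unadjusted p under 0.05 there were 8 members lower in IL-33-deficient kidneys and 2 higher, against 4.78% and 5.55% of all genes. All 10 were among the 69 brighter members, and among the brighter genes the shares were 7.73% and 9.23%. No member was below, or above, every WT array on every IL-33-deficient array, against 0.336% and 0.419% of all genes. The sign was lower in IL-33-deficient kidneys for 60 of the 77 genes, 77.9%, where it was lower for 48.1% of all genes, and the median difference was -0.06. In the same comparison all 9 proximal tubule markers were lower in sign, with a median of -0.46 and 4 at an unadjusted p under 0.05, none passing after adjustment in limma, and their part in the subunits' difference was not tested. By complex the medians were -0.06 for I, -0.10 for II, -0.12 for III, -0.11 for IV and -0.05 for V. The members share the same kidneys and are not replicates of one another. In set 2 alone 45 of 77 were lower with a median of -0.02, and in set 1 alone 63 were, with a median of -0.13. The number at an unadjusted p under 0.05, 10 in all, was 20 without WT array 3819 and 6 without WT array 3818 or IL-33-deficient array 3822.

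The 5 members with the lowest p in that comparison were Atp5g2, Ndufa4, Uqcrc1, Cox6a1 and Ndufa9. Atp5g2 was higher in IL-33-deficient kidneys by 0.15 ± 0.04 (limma adjusted p = 0.311; exact two-sided permutation p = 0.00379, with 0.00126 the smallest that 5 against 7 arrays allow). Ndufa4 read 13.69 to 13.90 in WT, with a median of 13.84, and 13.66, 13.68, 13.68, 13.69 and 13.76 in IL-33-deficient kidneys, a difference of -0.12 ± 0.04 (limma adjusted p = 0.335; exact permutation p = 0.0152). The ranges overlapped, with array 3899 above 2 of the WT arrays. Uqcrc1 differed by -0.16 ± 0.05 (adjusted p = 0.356; exact permutation p = 0.0139), Cox6a1 by -0.21 ± 0.08 (adjusted p = 0.376; exact permutation p = 0.0189) and Ndufa9, an accessory subunit of complex I, by -0.17 ± 0.06 (adjusted p = 0.397; exact permutation p = 0.0139). Within set 1 Uqcrc1 differed by -0.27, Ndufa4 by -0.16, Ndufa9 by -0.30, Cox6a1 by -0.33 and Atp5g2 by 0.10. Within set 2 Uqcrc1 differed by -0.08, Ndufa4 by -0.10, Ndufa9 by -0.08, Cox6a1 by -0.14 and Atp5g2 by 0.19. With background subtraction Uqcrc1, Ndufa4, Ndufa9 and Atp5g2 were no longer under an unadjusted p of 0.05, at -0.16, -0.12, -0.18 and 0.16, and without array 3822 Ndufa9, at -0.15, was no longer under an unadjusted p of 0.05.

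**Figure D5:**
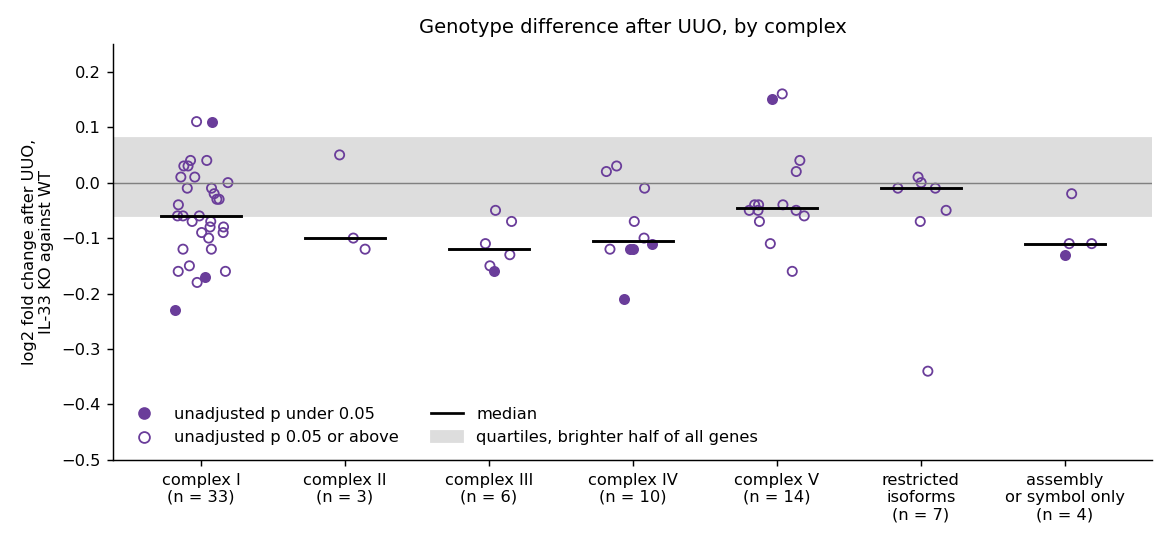
Log2 difference after UUO of IL-33-deficient from WT kidneys for each of the 77 genes by complex; filled points had an unadjusted p under 0.05, bars are medians and the grey band spans the quartiles of the genes brighter than the median gene, -0.06 to 0.08. The medians of the 5 complexes lie between -0.05 and -0.12, and the farthest point, at -0.34, is Cox7a1.

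Whether the response to UUO differed between the genotypes was tested as an interaction. None of the 77 genes passed an adjusted p of 0.05 in limma, where 0.0% of all genes did. At an unadjusted p under 0.05 there were 5 members whose response was more negative in IL-33-deficient kidneys and 1 whose response was more positive, against 2.31% and 2.44% of all genes. Uqcrc1 gave -0.33 ± 0.11 and Atp5g2 0.27 ± 0.08, each with a limma adjusted p of 0.973. The 11 genes that fell in IL-33-deficient kidneys and missed the threshold in WT are therefore not shown to respond differently. Between the control kidneys, 2 of the 77 genes had an unadjusted p under 0.05, against 3.66% of all genes, and none passed after adjustment in limma. The count was 4 without WT control 3812 or IL-33-deficient control 3814, and 1 without IL-33-deficient control 3813. The 2 genes were Cox6b2, at -0.15 ± 0.06, and Ndufa3, at 0.17 ± 0.07, and both were named after their values were seen.

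Genes that feed the chain with electrons also fell. Of 18 genes of the citric acid cycle and pyruvate dehydrogenase, 9 fell in WT and 11 in IL-33-deficient kidneys, with medians of -0.31 and -0.39. Among them, Ogdh, which oxidises 2-oxoglutarate, changed by -0.89 and -1.16, and Idh3a, a subunit of the NAD-dependent isocitrate dehydrogenase, by -0.67 and -0.74. Citrate synthase, Cs, did not pass, at -0.09 and -0.03. Of 15 electron carriers and coenzyme Q genes 4 and 8 fell, with Cycs, cytochrome c, at -0.39 and -0.57, Etfb, which takes electrons from fatty acid oxidation, at -0.57 and -0.95, and Coq9, needed for coenzyme Q synthesis, at -0.74 and -1.02. The 15 include Cyc1, itself a subunit of complex III, at -0.25 in WT, short of the threshold, and -0.34 in IL-33-deficient kidneys, where it passed. Of 18 measured assembly factors 5 fell and 1 rose (Ttc19) in WT and 6 fell in IL-33-deficient kidneys, where Acad9 and Ecsit, both of complex I assembly, were at -0.93 and -0.82 and Tmem70, of ATP synthase assembly, at -0.48. The 72 genes of the mitochondrial ribosome did not move one way, with 9 falling and 6 rising in WT, 12 falling and 18 rising in IL-33-deficient kidneys, and medians of -0.01 and 0.00. Among all genes 8.22% fell and 6.97% rose in WT, and 11.2% fell and 10.6% rose in IL-33-deficient kidneys. These lists were compared by their counts alone, and the differences between them were not tested.

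Among 15 regulators of mitochondrial biogenesis 5 fell in WT and 6 in IL-33-deficient kidneys, against 8.22% and 11.2% of all genes. Ppargc1a, the coactivator that drives the programme, read 9.94 and 9.75 in WT controls and 9.99 and 9.75 in IL-33-deficient controls. After UUO it lay between 8.02 and 9.26 in WT, with array 3818 the highest, and read 8.60, 8.38, 8.31, 8.57 and 8.32 in IL-33-deficient kidneys. No obstructed kidney reached a control, and the changes were -1.33 ± 0.23 (limma adjusted p = 0.00152) and -1.43 ± 0.24 (adjusted p = 0.000538). Among the ERR receptors it acts through, Esrra changed by -0.79 ± 0.23 (limma adjusted p = 0.0298) and -1.16 ± 0.24 (adjusted p = 0.00229), and Esrrb by -1.85 ± 0.24 (adjusted p = 0.000227) and -1.52 ± 0.25 (adjusted p = 0.000428). The remaining one, Esrrg, was at the background level, with a change of -0.01 in both genotypes. Nrf1 and Gabpa, which encode the factors whose motifs are marked above, did not pass, at -0.13 and -0.10 for Nrf1 and 0.05 in both genotypes for Gabpa. Between the genotypes after UUO none of these genes passed an adjusted p of 0.05. Of 15 hypoxia response genes 3 fell and 2 rose in each genotype. The 2 that rose were Hmox1, at 1.65 and 1.9, and Hif1a, at 0.27 and 0.43, and Vegfa was at -0.49 and -0.63. Among the brighter genes 15.3% fell in WT and 20.8% in IL-33-deficient kidneys, and 6.97% and 10.6% of all genes rose. These counts are near those shares.

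The promoters of 63 of the 77 genes were found, 69 promoters in all, and were searched for the motifs shown above. The NRF1 letters stood in 13% of the members' promoters and in 2.71% of all promoters of the same length. For GABP the shares were 23.2% and 8.86%, for YY1 17.4% and 6.34%, for ERR 10.1% and 4.72%, and for the hypoxia response element 26.1% and 19.6%. Among genes of the array table they were 3.73%, 12.4%, 6.21%, 3.82% and 21.7% in the same order of NRF1, GABP, YY1, ERR and hypoxia response element. As the printed sequences show, Uqcrc1, Cox6a1 and Atp5g2 each hold the palindromic NRF1 run, although the first pair fell and Atp5g2 did not, and Cox7a1 holds none of the motifs but that of the hypoxia response. Of the 9 genes with an NRF1 match 4 fell in WT and 4 in IL-33-deficient kidneys, and of the 54 without one 18 and 25 did. Those 4, and Atp5g2, the 1 with a match that rose, are all printed above, and no other gene with a match is. Of the 11 with a YY1 match 8 and 9 fell, and of the 52 without 14 and 20. Of the 7 with an ERR match none fell in either genotype at an adjusted p of 0.05 in limma (0 in WT and 1 in IL-33-deficient kidneys at an unadjusted p under 0.05), with medians of -0.04 and -0.11. A match is a run of letters and not a binding site, and these counts carry no test.

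Outside the constitutive subunits, Atp5sl, named for its likeness to an ATP synthase gene and now called Dmac2, an assembly factor of complex I, read 9.92 and 10.08 in WT controls and 9.92 and 9.89 in IL-33-deficient controls. The WT kidneys after UUO spanned 8.86 to 9.44, with a median of 9.02, and it read 8.97, 9.21, 9.23, 8.99 and 8.93 in IL-33-deficient kidneys. The groups were far apart, with changes of -0.91 ± 0.12 (limma adjusted p = 0.000272) and -0.84 ± 0.12 (adjusted p = 0.000233). Ndufaf1, another assembly factor of complex I, was -0.20 ± 0.09 (limma adjusted p = 0.158) in WT and -0.35 ± 0.09 (adjusted p = 0.0123) in IL-33-deficient kidneys. Cox4nb, a neighbour of Cox4i1 that encodes a part of a membrane protein complex of the endoplasmic reticulum and no subunit of complex IV, was 0.03 ± 0.07 in WT and -0.27 ± 0.07 (limma adjusted p = 0.0140) in IL-33-deficient kidneys. Both calls were lost without either IL-33-deficient control, at -0.33 and -0.37 for Ndufaf1 and -0.26 and -0.27 for Cox4nb without 3813 and 3814.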

How the data were processed

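RNA of 16 mouse kidneys was hybridized to Illumina MouseRef-8 BeadChips. The authors imported the arrays with beadarray and deposited 1 linear intensity per gene, from 95.5 to 23471; BeadStudio 2 is named in the submitters' processing notes. Background correction, normalization and the joining of probes are not given in the sources used here. Array medians of 132.3 to 133.4 show that values were already scaled alike, no detection p-values are in the table, and precision is limited by how few arrays each group has. No column of values was left out.

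Intensities were quantile-normalized, taken to log2 and fitted in limma 3.58.1 under R 4.3.3 (lmFit, eBayes); p-values were adjusted over all 18132 genes by the Benjamini-Hochberg method. UUO effects, their interaction and the comparison of controls came from 1 model of 4 groups, and the genotypes after UUO from the 12 obstructed kidneys. Exact permutation tests were two-sided. Members were matched to RefSeq by their own symbol (72) or a synonym (5). The members named are a fixed set of 32, of which 28 were measured, the largest changes called in each complex, the 5 lowest p between genotypes, and members called against the direction of their complex; others are marked, and some genes of the table are not reported here. Members and gene lists were chosen with earlier results of these data known. The fit was tested on simulated data. Alternatives were other normalizations, background subtraction (1st percentile, floor of 16), brighter genes only, a variance trend, array weights, each array left out, each set alone, set as a block and a fold change minimum of 1.3; leaving out WT arrays 3818 and 3820 together was added after seeing the data. Tables and plots used Python 3.11.15, pandas 2.3.3, numpy 2.4.6 and matplotlib 3.10.9.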

Additional observations from a re-analysis of the deposited data

Results flagged for a closer look

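In 90 groups of 4 to 10 arrays, 5 values stood apart from their group by Dixon's test, and chance flags about 1 in 20 groups. WT array 3820 was high on its own for Cox7a1 (8.93, with the next WT kidney after UUO at 8.22), Ndufa9 (12.21, next 11.92), and Ndufs3 (11.73, next 11.33), in each case toward the controls. The mean of complex II was lowest in IL-33-deficient array 3821, at -0.68 against -0.39 in the nearest array of its group, and the mean of complex V was lowest in WT array 3819, at -0.29 against -0.15. All 3 arrays belong to set 1, and the cause was not tested.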

How the results depend on the processing

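Directions of the medians of all members and of the 5 complexes held under every alternative run, except that complex V between genotypes was at 0.00 in set 2 alone, while counts depended on the arrays and the background. With the 1st percentile subtracted, 13 members were called in WT and 2 were under an unadjusted p of 0.05 between the genotypes after UUO. Leaving out single arrays gave 10 to 29 calls in WT, 25 to 39 in IL-33-deficient kidneys, 6 to 20 members between genotypes after UUO, and 1 to 4 between controls, and medians of complex II from -0.50 to -0.27 and of complex V from -0.21 to -0.08 in IL-33-deficient kidneys. Set 1 alone gave 1, 24 and 6 members for the first 3 comparisons. A fold change above 1.3 left 13 in WT, and the study's threshold 0 between genotypes. Between controls the count was 1 without quantile normalization, with median centring, background subtraction or a variance trend, and 0 among brighter genes. With set 1 alone the medians were -0.37 for complex I and -0.50 for complex II in IL-33-deficient kidneys, and between genotypes -0.15 for complex I and -0.24 for complex III; with set 2 alone complex V was at -0.05. Among brighter genes complex III was at -0.37 and -0.63. Signs near 0 turned: Atp5a1 (-0.45 to 0.04 without single arrays and 0.05 in set 2 in IL-33-deficient kidneys, 0.03 in set 2 in WT), Atp5b (-0.03 to 0.02, and 0.02 in set 1), Atp5g2 in WT (-0.10 to 0.05), Atp5o in WT (-0.05 to 0.21), Cox4i2 in WT (-0.06 to 0.07, -0.01 with array weights, -0.02 in set 2, 0.00 without 3818 and 3820), Cox8b (-0.12 to 0.04, and -0.05 to 0.16 in WT), Ndufs1 in WT (-0.02 to 0.01, and 0.00 in set 2), Sdhd (-0.18 to 0.23 and -0.06 in set 1, and in WT -0.49 to 0.13 and 0.02 in set 2) and Uqcrfs1 (-0.17 to 0.01). Of 96 losses of a named gene's call over all alternatives, 33 came from leaving out a control and 28 from set 1 alone. The causes were not tested. No paired analysis was possible because the groups share no replicate numbers.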

Other observations

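A small group of subunits spread more widely between arrays than the rest. The 10 with the largest standard errors (Atp5a1, Sdhd, Ndufb9, Ndufb4, Ndufb5, Ndufb10, Ndufb2, Atp5e, Cox6c and Cox7a2, chosen after their values were seen) shared the arrays in which they were low. Relative to the mean of its own group, their median was -0.46 in WT array 3819 and -0.46 in IL-33-deficient array 3821, while the other 52 brighter subunits had medians of -0.12 and -0.07 there. Both arrays were singled out because the mean over the subunits, these 10 among them, was lowest on them. Since the 10 were taken for their wide spread, part of their distance from the other 52 follows from the choice. The contrast carries no test. Among controls the median of the 10 was 0.10 on WT array 3811, -0.10 on WT array 3812, 0.13 on array 3813 and -0.13 on array 3814. The cause was not tested.

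Carriers and porins of the mitochondrion, listed with its creatine kinases, Ucp2 and the ATP synthase inhibitor Atpif1, did not share a direction. Of 10 measured, Vdac1, the main porin, changed by -0.43 in WT and -0.61 in IL-33-deficient kidneys, and Ckmt1, the ubiquitous mitochondrial creatine kinase, by -0.83 and -0.94, all passing an adjusted p of 0.05 in limma. Vdac3, a porin of the same family, rose by 0.38 and 0.64, and Vdac2, the remaining porin, was at 0.20, short of the threshold, and rose by 0.27. The adenine nucleotide carriers Slc25a4, at the background level in every group, and Slc25a5 did not pass.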
